A study of Mus musculus with 24 samples.

Results

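Gene expression in the nucleus accumbens was set against that in the ventral tegmental area (VTA) of Vdr-/- mice that had received PBS and no morphine. The members are 6 RNA-seq libraries of the 24 in the series: the accumbens libraries of mice 7, 8 and 9 and the VTA libraries with the same 3 numbers, taken here to be from the same 3 mice. They were chosen by their labels (VDR-/-, PBS, brain location and mouse number), and each accumbens library was compared with the VTA library of its own mouse. All animals were on a C57BL/6 background, and PBS was given intraperitoneally. The reference animals were 3 Vdr+/+ mice (mice 1, 2 and 3) that received the same injection and gave 6 libraries of the same regions. Vdr-/- mice lack a functional vitamin D receptor in every tissue and, per the study's methods, were raised on a diet enriched in calcium and lactose, so that genotype and diet cannot be told apart in any comparison of the genotypes. The labels give neither age nor sex. Each library holds mRNA of frozen tissue punches from both hemispheres, so it mixes all cell types of the punch, and fewer cells of a type and less RNA per cell cannot be told apart.

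The VTA and the nucleus accumbens are the origin and a main target of the mesolimbic dopamine pathway. Dopamine neurons of the VTA make dopamine from tyrosine, load it into vesicles and take it up again at their terminals, while most accumbens neurons are GABAergic medium spiny neurons that carry either D1-type or D2-type dopamine receptors and the opioid peptides dynorphin or enkephalin. The vitamin D receptor is a nuclear receptor that binds DNA as a partner of retinoid X receptors, and it has been described in midbrain dopamine neurons.

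The reads on genes ranged from 16909412 to 18903015 in the 3 accumbens libraries and from 12421680 to 30184172 in the 3 VTA libraries. Values are whole reads recovered from the deposited tables and divided by library size factors, called normalised reads below, and a gene was called where limma gave a Benjamini-Hochberg adjusted p under 0.05. Vdr itself, the targeted gene, was too low to check the genotype: its reads were 6, 10 and 6 in the accumbens and 7, 3 and 17 in the VTA of mice 7, 8 and 9, against 14, 1 and 7 in the accumbens and 12, 10 and 2 in the VTA of Vdr+/+ mice, so the genotype rests on the labels. The accumbens library of Vdr+/+ mouse 2 stood apart from the other 11 PBS libraries in its dependence on transcript length (rho = -0.353 over genes, against -0.156 to 0.203), which touches only the comparisons with Vdr+/+ mice.

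Of 16345 genes tested in Vdr-/- mice, 9068 were called between the regions, which is 55.5% of the genes, and the values of the regions did not overlap for 65.8%. The calls were split almost evenly, with 4469 genes higher in the accumbens (27.3%) and 4599 higher in the VTA (28.1%), around a median log2 difference (accumbens minus VTA) of -0.0032. With scaling to total reads the median moved to -0.104 and the share of the calls that were higher in the accumbens from 49.3% to 38.6%, so small differences depend on the scaling. With such a background a call alone says little, and the size of a difference carries the contrast. The shares of 27.3% and 28.1% are the background of each count of list members below. A called difference of 2 or more (log2) was found for 483 genes on the accumbens side and 347 on the VTA side, and one of 4 or more for 94 and 64.

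**Figure D1:**
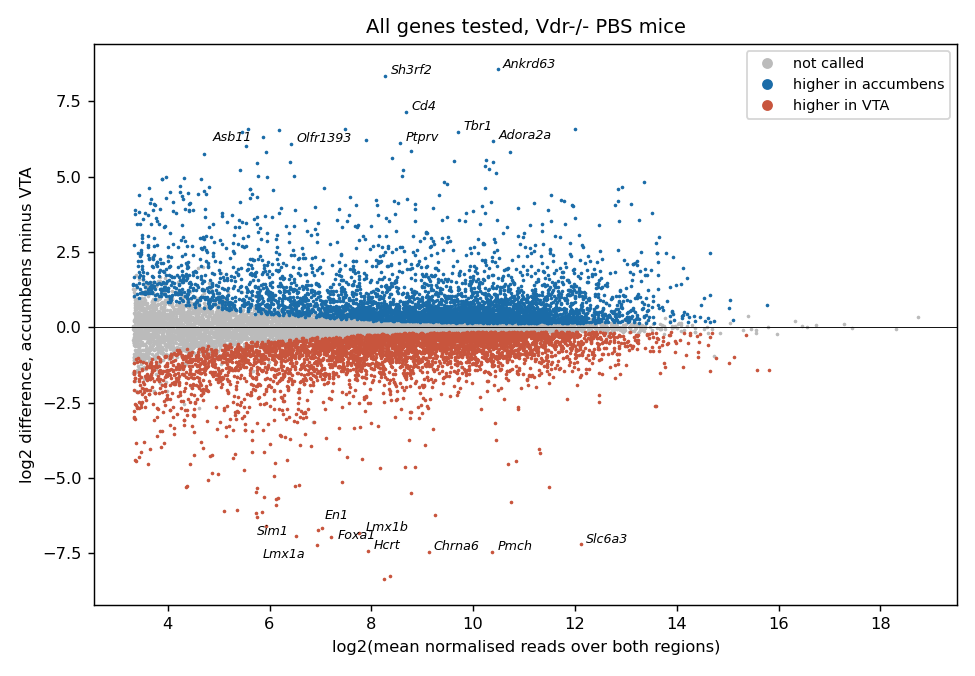
Log2 difference (accumbens minus VTA, y axis) against the log2 mean normalised reads of both regions (x axis) for the 16345 genes tested in 3 Vdr-/- PBS mice, coloured by the limma call, with some of the genes of large differences at a mean of at least 50 named. Ankrd63 and Sh3rf2 lie at the top and Chrna6 and Pmch near the bottom, while 9068 genes are called at all sizes of difference.

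The accumbens libraries were led by genes of medium spiny neurons. All 22 listed genes shared by these neurons were called higher in the accumbens, against 27.3% of all genes. Their median log2 difference was 3.33 against -0.0032 over all genes tested, and all 22 were called without any one of the 3 mice. Ppp1r1b, which encodes the dopamine-regulated phosphatase inhibitor DARPP-32 (chr11:98348404-98357796, GRCm38), held 14697, 13875 and 16479 normalised reads in the accumbens and 563, 768 and 496 in the VTA of mice 7, 8 and 9. The 2 regions were far apart in each mouse, and the difference was 4.64 ± 0.16 (log2, SE, n = 3 mice, adjusted p = 5.8e-05). Rgs9, a regulator of G protein signaling that shortens dopamine receptor responses, held 7313, 7310.0 and 7953 in the accumbens and 436, 434 and 505 in the VTA, a difference of 4.04 ± 0.048 (adjusted p = 1.38e-05) with hardly any spread among the mice.

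Ankrd63, an ankyrin repeat gene, differed most among genes that are not predicted and have a mean of at least 50, by 8.56 ± 0.31 (adjusted p = 6.03e-05), from 2837, 2733 and 2974 in the accumbens and only 4.98, 13.1 and 4.12 in the VTA. Bcl11b, a zinc finger factor of medium spiny neuron differentiation, differed by 4.40 ± 0.22 (adjusted p = 0.000116), and Meis2, a homeodomain factor of the striatal lineage, by 4.06 ± 0.15 (adjusted p = 6.03e-05). The smallest difference on the list was that of Foxp2, a forkhead factor, at 0.98. Other genes with large differences in this direction were Cd4, best known as a T cell co-receptor (7.14), the SH3 domain gene Sh3rf2 (8.34, with 0, 1 and 3 reads in the VTA libraries), Ptprv (6.11), Asb11 (6.31) and Olfr1393 (6.10).

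Receptors and peptides of the output pathways showed the same direction. Drd1, the D1 receptor of direct pathway neurons (chr13:54051183-54055705), held 3390.2, 3204 and 3449 normalised reads in the accumbens and 48.8, 63.9 and 64.8 in the VTA, a difference of 5.81 ± 0.10 (adjusted p = 1.67e-05). Adora2a, the adenosine receptor of indirect pathway neurons (chr10:75316877-75334784), held 2509.6, 2452 and 2965 and 31.9, 37.8 and 35.9, and differed by 6.19 ± 0.094 (adjusted p = 1.67e-05). Both receptors varied little among the 3 mice in either region.

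Drd2, the D2 receptor (chr9:49340627-49408177), also serves as an autoreceptor of dopamine neurons and was present on both sides. It held 2890.0, 2685 and 3282 normalised reads in the accumbens and 1082, 1744 and 512 in the VTA, a smaller difference of 1.57 ± 0.36 (adjusted p = 0.0142), and its VTA values were spread widely, mouse 8 highest and mouse 9 lowest. Drd3 differed by 3.56 and Drd5 by 0.73, so that all 4 dopamine receptors tested were called higher in the accumbens. The call of Drd5 was lost without mouse 8 (0.49) or mouse 9 (0.82). Drd4 was too low to test.

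Of the 8 listed direct pathway genes 6 were called higher in the accumbens and 1, the transcription factor Ebf1 (-0.55), higher in the VTA, and of the 7 indirect pathway genes tested 6 were called higher in the accumbens and none in the VTA. Over all genes these shares were 27.3% and 28.1%. Tac1, the substance P precursor, differed by 2.32 ± 0.13 (adjusted p = 0.000134), the muscarinic receptor gene Chrm4 by 3.93, the constitutively active receptor gene Gpr6 by 5.03 ± 0.12 (adjusted p = 3.24e-05) and the kainate receptor gene Grik3 by 1.49. Sfxn1 (0.15) and Ptprm (0.12) were not called.

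**Figure D2:**
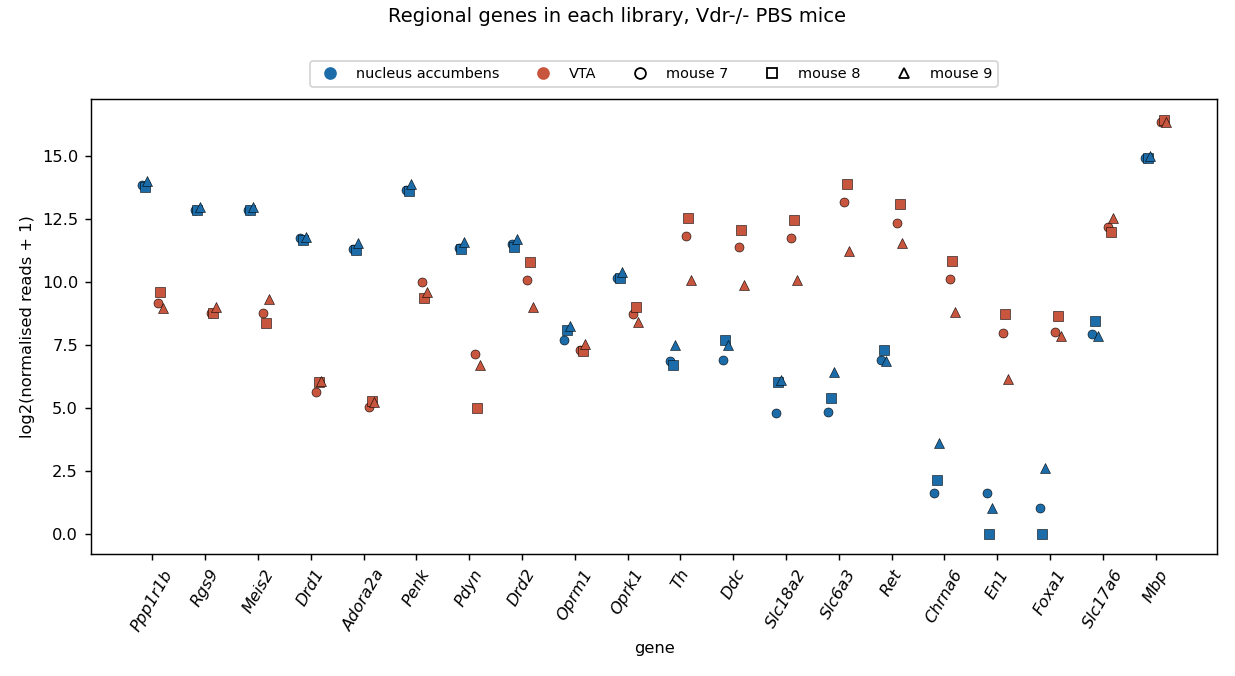
Normalised reads (log2 of value + 1, y axis) of 20 genes in each of the 6 Vdr-/- PBS libraries, with colour for the region and shape for the mouse. The 10 genes on the left are higher in the accumbens in each mouse, the other 10 are higher in the VTA, and mouse 9 has the lowest VTA value of each of the 8 dopamine neuron genes from Th to Foxa1.

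All 7 tested genes of the opioid system were called between the regions, against 55.5% of all genes. Of the 7, 5 were higher in the accumbens and 2 higher in the VTA. Penk, the enkephalin precursor (chr4:4133531-4138819), held 12567, 12508 and 14932 normalised reads in the accumbens and 1001, 646 and 774 in the VTA, a difference of 4.06 ± 0.13 (adjusted p = 5.26e-05). Pdyn, the dynorphin precursor (chr2:129686565-129699844), held 2609, 2523 and 3015 and 139, 30.5 and 104 and differed by 5.13 ± 0.38 (adjusted p = 0.00029), with the lowest VTA value in mouse 8. Both precursors were higher in the accumbens of every mouse without overlap.

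Oprm1, the μ-opioid receptor through which morphine acts (chr10:6758506-7038198), showed the smallest difference of the receptors. It held 204, 272 and 302 normalised reads in the accumbens and 153, 149.6 and 186 in the VTA, so that the groups did not overlap but the lowest accumbens value, in mouse 7, was close to the highest VTA value, in mouse 9. The difference was 0.65 ± 0.11 (adjusted p = 0.00514). Oprk1, the κ receptor bound by dynorphin, held 1121, 1131 and 1333 against 422, 511 and 339 (1.51 ± 0.16, adjusted p = 0.000822), and Oprd1, the δ receptor, held 595, 501 and 554 against 176, 169.9 and 172 (1.66 ± 0.077, adjusted p = 9.91e-05). The nociceptin receptor gene Oprl1 (-1.04) and the nociceptin precursor gene Pnoc (-1.41) were higher in the VTA. Pomc, the β-endorphin precursor, was too low to test.

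Genes listed for local interneurons of the striatum were mixed in direction. Among 12 listed genes 7 were called higher in the accumbens and 2 higher in the VTA, against 27.3% and 28.1% of all genes. Chat, which makes acetylcholine, held 266, 386 and 277 normalised reads against 9.96, 20.3 and 34.2, a difference of 3.92 ± 0.32 (adjusted p = 0.000373), and the choline transporter gene Slc5a7 differed by 3.72. The neuropeptide genes Npy (3.77) and Sst (1.96) were higher in the accumbens. Pvalb, the calcium-binding protein of fast-spiking cells, was higher in the VTA, at 741, 761 and 484 against 139, 158 and 90.4 (-2.36 ± 0.077, adjusted p = 5.26e-05), and so was the homeobox gene Nkx2-1 (-0.88), while Nos1 (0.05), Pthlh (-0.48) and Cort (1.61) were not called. Nkx2-1 was no longer called without mouse 7 (-0.69) or mouse 9 (-0.83).

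Factors that pattern the forebrain mostly followed the region, with 10 of 11 tested genes called higher in the accumbens, against 27.3% of all genes. That count was 8 without mouse 7 or mouse 9 and 9 without mouse 8. Dlx1 (1.39), Dlx2 (1.83), Dlx5 (2.76) and Dlx6 (2.67), homeobox genes of GABAergic forebrain neurons, were higher in the accumbens. The exception was Zfhx3 (-1.39), which was higher in the VTA.

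Markers of cortical excitatory neurons were mostly higher in the accumbens libraries. Of 10 listed genes 7 were called higher there, 2 (Cux2 at -0.53 and Nrn1 at -0.76) higher in the VTA, and the median was 2.98. Over all genes the shares of these calls were 27.3% and 28.1%. Without mouse 9 Nrn1 was not called (-0.57). The summed level of the list was 1324, 781 and 871 CPM (reads scaled to a fixed library total) in the accumbens and 165, 322 and 247 in the VTA. Tbr1, a factor of deep cortical layers, held 2069, 1340.5 and 1516 normalised reads against 7.96, 55.2 and 10.6 (6.49 ± 0.60, adjusted p = 0.000556), and Slc17a7, the vesicular glutamate transporter of cortical neurons, held 18759.6, 9944 and 11916 against 77.7, 2369 and 828 (4.60 ± 1.04, adjusted p = 0.0131). Among the VTA libraries mouse 8 held the most Tbr1 and Slc17a7. The part of cortical tissue in the accumbens differences was not tested.

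The VTA side held the genes of dopamine neurons. Of 12 listed genes of dopamine synthesis, storage and uptake 10 were called higher in the VTA (against 28.1% of all genes), 1 higher in the accumbens and 1 was not called. Their median log2 difference was -2.43, and the count of 10 was the same without any one of the 3 mice. Th, tyrosine hydroxylase and the rate-limiting enzyme of the pathway (chr7:142892752-142931128), held 3628, 5865 and 1061 normalised reads in the VTA and 116, 103 and 179 in the accumbens. The VTA libraries differed severalfold among themselves, mouse 8 highest and mouse 9 lowest, but each lay well above every accumbens library, and the difference was -4.45 ± 0.59 (adjusted p = 0.00194). Ddc, the decarboxylase that completes dopamine synthesis, held 2667, 4263 and 930.5 and 118, 206 and 179.7 (-3.74 ± 0.42, adjusted p = 0.00106), with the VTA libraries in the same order of mice.

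Slc18a2, the vesicular monoamine transporter (chr19:59260896-59296012), held 3401, 5633 and 1056 normalised reads in the VTA and 26.7, 63.1 and 67.0 in the accumbens, a difference of -5.79 ± 0.56 (adjusted p = 0.000651). Slc6a3, the dopamine transporter (chr13:73536747-73578672), held 9187, 14919 and 2374 in the VTA and 27.7, 40.6 and 85.3 in the accumbens, the latter being few reads beside those of the VTA, and it differed by -7.20 ± 0.73 (adjusted p = 0.000759). Mouse 9 had the lowest VTA and the highest accumbens value of both Th and Slc6a3. Gch1, which supplies the cofactor of tyrosine hydroxylase, differed by -3.71, the aldehyde dehydrogenase gene Aldh1a1 by -4.05, and the monoamine oxidase genes Maoa and Maob by -0.84 and -0.63. Pts (-0.10) was not called.

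The promoters of dopamine genes are shown because Th and its partners differed together between the regions. Each window runs from 250 bases before to 50 bases after the transcription start in RefSeq (GRCm38.p6), read 5′ to 3′ on the gene's strand, and capitals mark a match to the cAMP response element TGACGTCA, the NR4A motif AAAGGTCA (also on both strands, which reads TGACCTTT on the other) or the FOXA core TGTTTAC, searched on both strands. The Th window (chr7:142899946-142900245, minus strand) and the Slc18a2 window (chr19:59260628-59260927, plus strand) each hold 1 cAMP response element, the Ddc window (chr11:11898095-11898394, minus strand) holds 1 NR4A motif, the window of the factor Foxa1 (chr12:57546062-57546361, minus strand) holds 1 FOXA core, and the Slc6a3 window (chr13:73536497-73536796, plus strand) holds no match. Gpr6 (chr10:41072241-41072540, minus strand), a gene of the accumbens side, is shown as it also holds 1 cAMP response element.
Th: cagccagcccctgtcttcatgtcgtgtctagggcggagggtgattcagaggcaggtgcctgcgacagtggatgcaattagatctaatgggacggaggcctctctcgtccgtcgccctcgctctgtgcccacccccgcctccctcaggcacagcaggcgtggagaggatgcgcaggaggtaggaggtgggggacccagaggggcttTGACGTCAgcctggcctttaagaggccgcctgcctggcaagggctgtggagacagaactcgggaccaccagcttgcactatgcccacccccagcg
Slc18a2: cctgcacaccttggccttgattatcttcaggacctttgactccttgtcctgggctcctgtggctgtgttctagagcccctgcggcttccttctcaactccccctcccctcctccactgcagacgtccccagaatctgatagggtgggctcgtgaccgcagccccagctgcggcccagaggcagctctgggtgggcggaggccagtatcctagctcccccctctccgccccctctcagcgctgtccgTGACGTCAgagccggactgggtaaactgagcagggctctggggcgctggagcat
Ddc: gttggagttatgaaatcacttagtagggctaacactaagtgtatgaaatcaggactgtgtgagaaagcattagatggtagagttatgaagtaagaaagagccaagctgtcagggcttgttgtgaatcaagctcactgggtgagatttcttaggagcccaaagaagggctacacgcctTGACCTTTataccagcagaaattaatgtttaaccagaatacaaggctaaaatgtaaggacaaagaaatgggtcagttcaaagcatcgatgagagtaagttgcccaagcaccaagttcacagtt
Slc6a3: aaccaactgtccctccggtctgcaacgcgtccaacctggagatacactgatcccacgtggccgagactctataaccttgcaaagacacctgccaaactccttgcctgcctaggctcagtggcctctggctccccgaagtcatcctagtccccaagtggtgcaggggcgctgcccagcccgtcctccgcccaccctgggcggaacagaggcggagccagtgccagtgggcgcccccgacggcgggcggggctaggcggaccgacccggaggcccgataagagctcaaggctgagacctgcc
Foxa1: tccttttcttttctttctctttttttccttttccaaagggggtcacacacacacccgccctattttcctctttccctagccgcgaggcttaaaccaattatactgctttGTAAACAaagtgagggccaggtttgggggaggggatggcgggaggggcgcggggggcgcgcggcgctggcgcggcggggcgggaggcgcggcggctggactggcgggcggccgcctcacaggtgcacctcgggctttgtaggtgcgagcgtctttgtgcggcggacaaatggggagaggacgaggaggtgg
Gpr6: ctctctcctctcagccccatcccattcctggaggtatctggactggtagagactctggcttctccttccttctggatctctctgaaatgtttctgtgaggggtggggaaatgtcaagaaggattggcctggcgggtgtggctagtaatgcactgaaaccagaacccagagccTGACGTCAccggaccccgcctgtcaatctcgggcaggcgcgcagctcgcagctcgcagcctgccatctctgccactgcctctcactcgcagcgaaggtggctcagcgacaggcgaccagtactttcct

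Promoters with a motif were few on both sides, and no test of the shares was made. The cAMP response element was in 6 of 234 promoters (2.56%) of genes higher in the VTA by 2 or more (log2) and in 4 of 318 (1.26%) of those higher in the accumbens, against 374 of 11825 promoters (3.16%) of all genes tested with a window. The NR4A motif was in 3 (1.28%) and 4 (1.26%) of these promoters against 101 (0.854%), and the FOXA core in 6 (2.56%) and 7 (2.20%) against 284 (2.4%). These matches are descriptions of letters, and a gene with several starts was searched at the first listed one.

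Most transcription factors that specify midbrain dopamine neurons were at few or no reads in the accumbens. Of 11 tested 9 were called higher in the VTA and none in the accumbens, with a median of -5.05, also with Foxa2 at its lower bound. Pitx3 held 60.7, 93.0 and 12.4 normalised reads in the VTA and 0, 1.13 and 0 in the accumbens (-5.05 ± 0.56, adjusted p = 0.00102), En1 held 246, 423 and 69.5 and 2.05, 0 and 1.01 (-6.73 ± 0.68, adjusted p = 0.000757), and Foxa2 held 60.7, 91.5 and 54.8 and no read in any accumbens library, at least 70.2-fold higher in CPM than a limit of 3 reads over the 3 accumbens libraries. Lmx1a, a roof and floor plate factor, held 228, 221 and 284 in the VTA (-7.23 ± 0.31, adjusted p = 8.2e-05) and was highest in mouse 9, where Pitx3 and En1 were lowest. Foxa1 differed by -6.95 and Lmx1b by -6.81.

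Nr4a2 (Nurr1), the nuclear receptor that maintains the dopamine phenotype, was not called: it held 1312, 671 and 928 normalised reads in the accumbens and 759, 1206 and 732 in the VTA, with overlapping values (0.10 ± 0.30, adjusted p = 0.807). Without mouse 8 it was called higher in the accumbens, by 0.56 (adjusted p = 0.00123), and without mouse 7 or mouse 9 the difference was -0.25 or -0.02. Sox6 (0.02) was not called either. Neurog2 was too low to test.

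Genes listed as receptors and surface genes of dopamine neurons followed, called surface genes below, although not all of them encode surface receptors. Of 12 listed genes 8 were called higher in the VTA, 3 were not called (Gfra1 at -0.07, Cadps2 at -0.11 and Kcnj6 at -0.17, which were 0.06, 0.28 and 0.13 without mouse 8), and 1, the lipoprotein lipase gene Lpl (3.95), was higher in the accumbens. Ret, the GDNF co-receptor, held 5092, 8671 and 3002 normalised reads in the VTA and 118, 157 and 114 in the accumbens (-5.30 ± 0.20, adjusted p = 6.03e-05). Chrna6, a nicotinic receptor subunit largely limited to catecholamine neurons (chr8:27403212-27413944), held 1101, 1788 and 443 and 2.05, 3.38 and 11.2 (-7.45 ± 0.69, adjusted p = 0.000574), Chrnb3 differed by -4.64 ± 0.39 (adjusted p = 0.000412) and the neurotensin receptor gene Ntsr1 by -2.19. Over all nicotinic subunits 7 of 9 tested were higher in the VTA (against 28.1% of all genes), Chrna2 (2.19) was higher in the accumbens and Chrna5 (-1.44) was not called. Chrna2 was not called without mouse 7 (1.77) or without the block for mouse (adjusted p = 0.0868), and without mouse 9 Chrna5 was called (-2.03).

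The 3 VTA libraries differed in the summed level of these genes. The 12 genes of dopamine synthesis, storage and uptake summed to 1752, 2500.3 and 893 CPM in mice 7, 8 and 9, and the 12 surface genes to 963, 1430.1 and 584, so mouse 8 was highest and mouse 9 lowest in both. Hypothalamic and mammillary markers were lowest in mouse 8, at 388, 76.4 and 303, against 0.476, 1.12 and 1.06 in the accumbens. Thalamic markers were high in mouse 9 alone, at 544, 510.4 and 970.1. That list includes Slc17a6, the vesicular glutamate transporter gene of subcortical neurons, which gave 258, 221 and 333 CPM of these sums. The part of neighbouring tissue in the VTA differences was not tested.

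**Figure D3:**
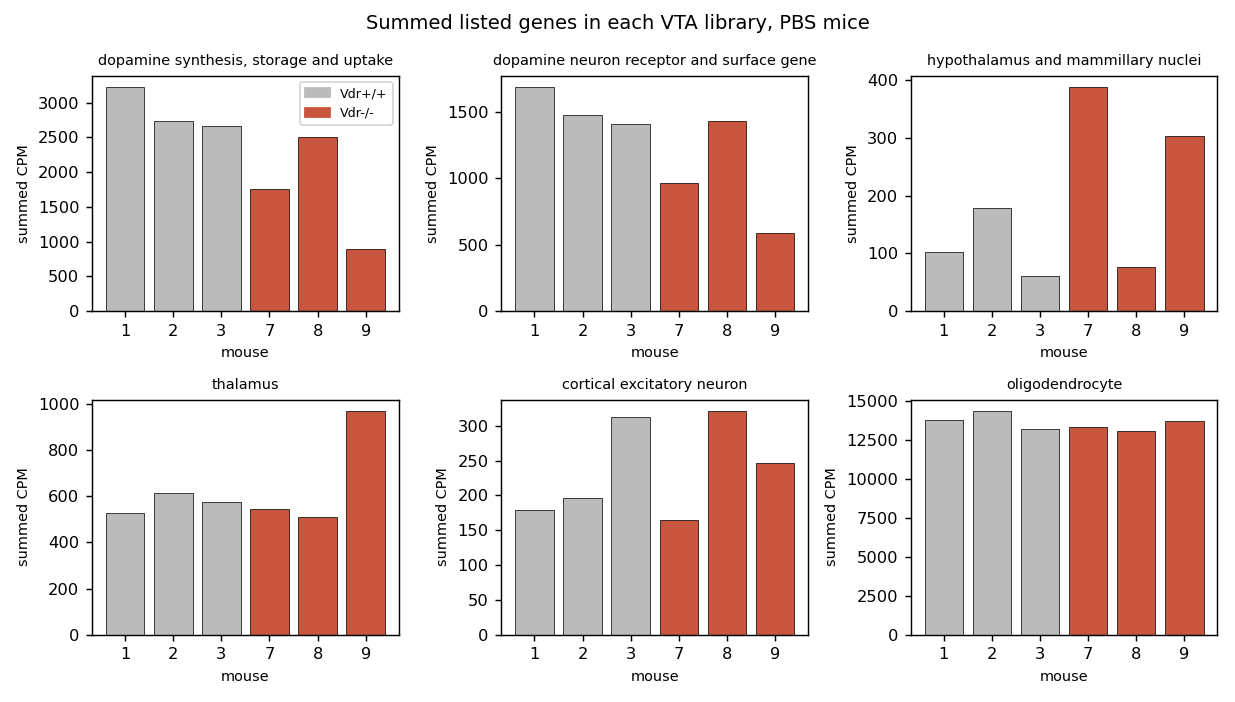
Summed CPM, reads scaled to a fixed library total (y axes, from 0) of 6 gene lists in the VTA library of each PBS mouse (x axes), grey for Vdr+/+ and red for Vdr-/-. In the dopamine synthesis panel the Vdr-/- mice lie at 893 to 2500 and the Vdr+/+ mice at 2658 to 3225, and the thalamus panel has its highest bar in mouse 9.

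Peptides of the lateral hypothalamus were spread likewise. Hcrt, the orexin precursor, had no read in any accumbens library and held 927, 8.71 and 542 normalised reads in the VTA, at least 503-fold higher in CPM than the same limit. Pmch, the melanin-concentrating hormone precursor, held 4548, 56.6 and 3374 in the VTA and 7.18, 5.64 and 2.03 in the accumbens (-7.45 ± 1.32, adjusted p = 0.00556). Both were high in mice 7 and 9 and low in mouse 8. Sim1, a factor of hypothalamic neurons, differed by -6.94. All 7 tested genes of this list, Lmx1b among them, were higher in the VTA, with a median of -6.94.

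Of 7 thalamic genes 5 were called higher in the VTA, against 28.1% of all genes. Among the 5 were Slc17a6, given below with the transmitter genes, and the factor gene Tcf7l2. Tcf7l2 held 774, 633 and 1286 against 116, 264 and 136 (-2.41 ± 0.36, adjusted p = 0.00304). Prkcd, a kinase gene rich in thalamic relay neurons, held 376, 382 and 3462 in the VTA and 335, 441 and 220.3 in the accumbens, high only in the VTA of mouse 9, and it was not called (-1.31 ± 0.80, adjusted p = 0.218), with differences of 0.02 without mouse 9 and -2.07, then called, without mouse 8. Factors of midbrain and hindbrain GABA and glutamate neurons were higher in the VTA for 14 of 17 tested genes and higher in the accumbens for none. Gata3, which specifies midbrain GABA neurons, held 97.6, 203 and 23.6 against no read in the accumbens, at least 109.7-fold higher than the limit, and Lhx1 differed by -6.65 ± 0.32 (adjusted p = 0.000112). Pax5 held 78.7, 577 and 9.43 in the VTA, mostly in mouse 8, against 13.3, 3.38 and 10.2, and was not called (-3.14 ± 1.27, adjusted p = 0.0844), but was called without mouse 9 (-4.73).

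Fast transmitters differed by type. Slc17a6, the vesicular glutamate transporter of subcortical neurons (chr7:51622006-51671119), held 4619, 3984 and 5926 normalised reads in the VTA and 242, 346 and 228 in the accumbens (-4.15 ± 0.21, adjusted p = 0.000117), opposite to Slc17a7. GABA genes were far more even: Gad1, a GABA-synthesizing enzyme, held 9897, 11973 and 10591 in the accumbens and 8065, 8808 and 6194 in the VTA (0.50 ± 0.097, adjusted p = 0.00738), and Gad2 differed by 0.79 ± 0.12 (adjusted p = 0.00281). Glycine transport genes were higher in the VTA, Slc6a9 by 2.00 and Slc6a5 by 2.71. Of the 11 listed transmitter genes 6 were higher in the accumbens and 5 in the VTA. Without mouse 9 the counts were 4 and 4, and without mouse 7 or mouse 8 they were 5 and 5.

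Of 14 GABA-A receptor subunits tested 6 (against 27.3% of all genes) were called higher in the accumbens, 4 (against 28.1%) were called higher in the VTA and 4 were not called. The VTA count was 2 without mouse 7 or mouse 9 and 6 without mouse 8. Gabrd, a subunit of extrasynaptic receptors, held 1379.9, 1268 and 1373 normalised reads in the accumbens and 16.9, 24.7 and 257 in the VTA (4.77 ± 0.72, adjusted p = 0.00312), with its highest VTA value in mouse 9, and Gabra4 differed by 1.93. Gabrq (-2.97) and Gabre (-2.33) were higher in the VTA, of which Gabre lost its call without mouse 7 (-1.37) or mouse 9 (-2.33).

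Glial genes separated the regions as well. All 15 oligodendrocyte genes were called higher in the VTA (against 28.1% of all genes), within a narrow range from -1.84 to -1.18 (median -1.43), and all 15 also without any one of the mice. Mbp, a main myelin protein (chr18:82475146-82585637), held 82141, 87092 and 82401 normalised reads in the VTA and 30412, 31055 and 32085 in the accumbens (-1.43 ± 0.07, adjusted p = 0.000112). The 3 VTA libraries were alike in this list, at 13338, 13107 and 13714 CPM, although they differed in dopamine genes.

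Of 14 astrocyte genes 11 were higher in the VTA (against 28.1% of all genes) and 2, the glutamate transporter genes Slc1a2 (0.73) and Slc1a3 (0.39), were higher in the accumbens. Agt, the angiotensinogen precursor made by astrocytes, held 2016, 4645 and 2697 normalised reads against 55.4, 389 and 90.4 (-4.54 ± 0.30, adjusted p = 0.000218), Gfap held 1248, 5689 and 3095 against 368, 584 and 411 (-2.65 ± 0.28, adjusted p = 0.000883), and the GABA transporter gene Slc6a11 differed by -2.61 ± 0.16 (adjusted p = 0.00018). Of 11 endothelial genes 10 were higher in the VTA, all by less than 1 on the log2 scale (median -0.59). Microglial genes were nearly even: 2 of 12, Cx3cr1 (0.28) and P2ry12 (0.31), were called higher in the accumbens, 10 were not called, and with scaling to total reads 0 were higher in the accumbens and 1 in the VTA. Without mouse 7 or mouse 9 none of the 12 was called, and without mouse 8 there were 4 higher in the accumbens.

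**Figure D4:**
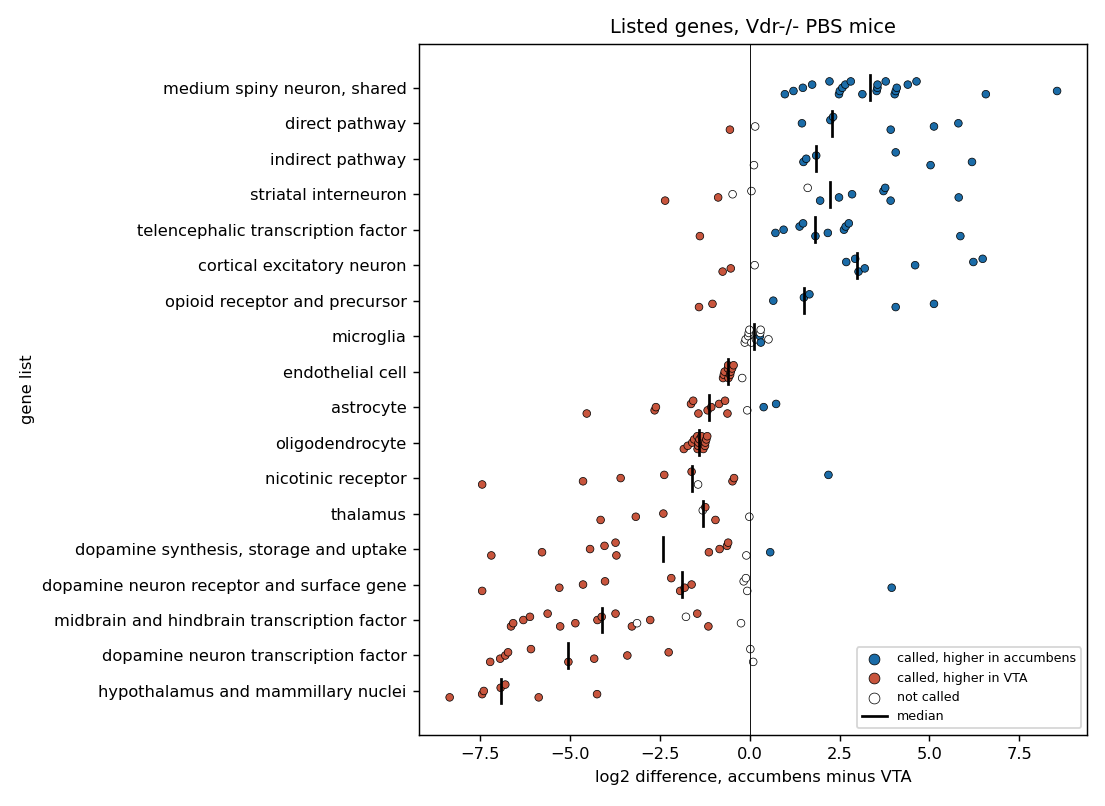
Log2 difference (accumbens minus VTA, x axis) of each tested member of 18 gene lists (y axis) in 3 Vdr-/- PBS mice, filled by the limma call, with a black bar at the median. Medium spiny neuron genes have a median of 3.33 and dopamine neuron transcription factors one of -5.05, while oligodendrocyte genes lie in a narrow band around -1.43 and microglial genes around 0.11.

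The regional contrast was then set against that of Vdr+/+ PBS mice, whose libraries are separate from those of the Vdr-/- mice, to see which regional genes keep or lose contrast without Vdr. In Vdr+/+ mice 7353 of 16329 genes were called between the regions (45.0%). Of the 9068 genes called in Vdr-/- mice 6536 were called in the same direction in Vdr+/+ mice, which is 72.1% of the Vdr-/- calls and 88.9% of the Vdr+/+ calls, and 4 were called in opposite directions. Without Vdr+/+ mouse 1, which leaves mouse 2 and mouse 3, the shared calls were 4124, without mouse 2 they were 7596, and without mouse 3 they were 4547. Among Vdr-/- calls of at least 1 on the log2 scale 2495 of 2705 were also called in Vdr+/+ mice and 2697 had the same sign.

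A further 2430 genes were called in Vdr-/- mice only and 727 in Vdr+/+ mice only, but such a call in 1 genotype is no test of a difference. The test of the difference itself, the region by genotype term over 12 libraries, called 0 of 16337 genes in limma (0%), with 902 genes at an unadjusted p under 0.05 and a smallest adjusted p of 0.834. edgeR called 0 genes as well, with 885 at an unadjusted p under 0.05, and DESeq2 called 3, Ndnf, Arl4d and Cdkn1a, with 421. No loss or gain of a regional difference therefore passed the main test in 3 mice per genotype.

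**Figure D5:**
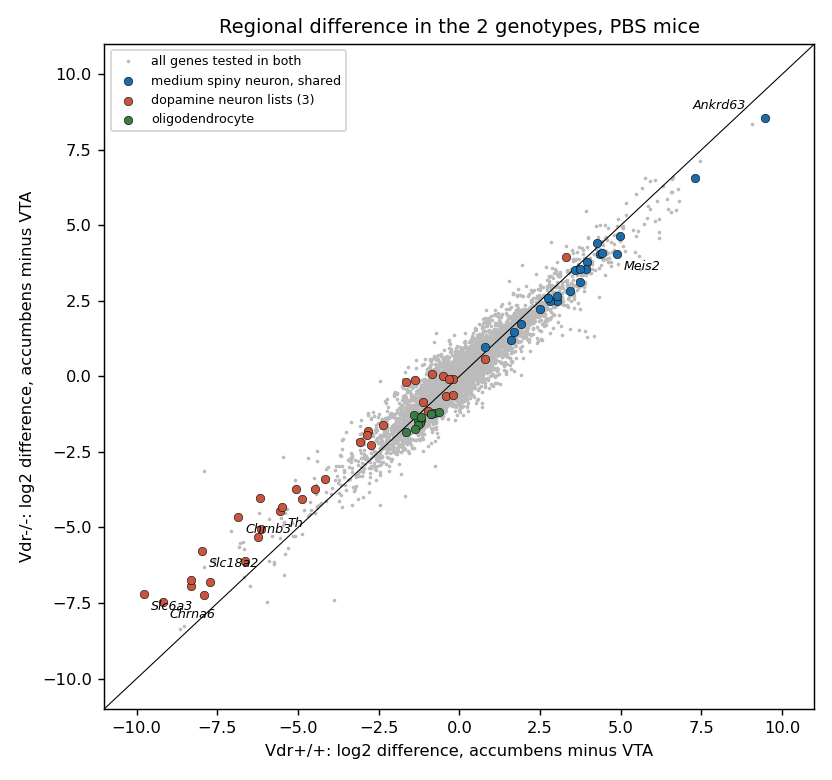
Log2 difference (accumbens minus VTA) in Vdr-/- PBS mice (y axis) against that in Vdr+/+ PBS mice (x axis) for all genes tested in both, with 3 kinds of listed genes coloured and the line of equal differences drawn. Genes of the 3 dopamine neuron lists lie mostly above the line, as Slc6a3 does at -7.20 against -9.78, medium spiny neuron genes mostly below it, and oligodendrocyte genes just below it.

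The direction of the genotype values nevertheless differed by gene list, and these are descriptions without a test. The difference was smaller in Vdr-/- than in Vdr+/+ mice for 20 of 22 medium spiny neuron genes, with medians of 3.33 and 3.66, and for 67.0% of all 497 genes whose mean difference favoured the accumbens by 2 or more (log2). It was smaller for 9 of 12 genes of dopamine synthesis, storage and uptake (medians -2.43 and -2.81), for all 11 dopamine neuron transcription factors tested (-5.06 and -6.14, with all 12 libraries scaled together) and for 11 of 12 surface genes (-1.88 and -2.86), against 61.0% of all 369 genes that favoured the VTA by at least 2 and 80.3% of the 71 that favoured it by at least 4. The median of the genotype values was 0.77 over those 71 genes and 0.91 over the transcription factors. Sizes were compared without regard to sign, and 9 of the 11 factors had the same sign in both genotypes. Nr4a2 and Sox6, at 0.10 and 0.02 in Vdr-/- and -0.84 and -0.50 in Vdr+/+ mice, did not and were not called in Vdr-/- mice. Without mouse 9, and with the Vdr-/- libraries fitted alone, the Vdr-/- medians moved from -1.88 to -2.43 for the surface genes, from -5.05 to -5.57 for the transcription factors and from -2.43 to -2.53 for the synthesis list. Hypothalamic and mammillary markers summed to 388, 76.4 and 303 CPM in the VTA of Vdr-/- mice and to 103, 178 and 59.8 in that of Vdr+/+ mice, and their part in these values was not tested. In the accumbens cortical markers summed to 1324, 781 and 871 CPM in Vdr-/- and to 496, 613 and 1075 in Vdr+/+ mice. Medium spiny neuron genes there summed to 10434, 9831 and 11414 in Vdr-/- and to 13018, 12356 and 11468 in Vdr+/+ mice. The part of cortical tissue in the medium spiny neuron values was not tested. Oligodendrocyte genes went the other way, with a larger difference in Vdr-/- mice for 14 of 15 genes (-1.43 and -1.23). Among all 1514 genes that favoured the VTA by at least 1 (log2) the difference was smaller in Vdr-/- mice for 52.6%. The oligodendrocyte list summed to 6736, 5509 and 5077 CPM in the accumbens of Vdr+/+ mice and to 4627, 4631 and 4845 in that of Vdr-/- mice. Its VTA sums overlapped between the genotypes.

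For Slc6a3 the log2 differences of the single mice were -10.33, -9.56 and -9.46 in Vdr+/+ and -8.33, -8.49 and -4.79 in Vdr-/- mice. The genotypes did not overlap, as held for 12.5% of all genes, but mouse 9 lay far from mice 7 and 8. The genotype term was 2.58 ± 0.91 (unadjusted p = 0.0232, adjusted p = 0.834) and 1.37 ± 0.27 without mouse 9. For Th the single mice lay at -5.39, -5.61 and -5.65 and -4.97, -5.83 and -2.57, with an overlap of the genotypes, and the term of 1.10 ± 0.72 (unadjusted p = 0.167) became 0.15 ± 0.25 without mouse 9 and 1.78 without mouse 8. The term of Slc18a2 (2.19, unadjusted p = 0.0254) was 1.27 without mouse 9 and 1.65 without Vdr+/+ mouse 2. That of Ddc (1.32, unadjusted p = 0.0415) was 0.63 without mouse 9. Mouse 9 thus set much of the size of the genotype values of these 4 genes.

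With all 12 libraries scaled together, the Slc6a3 VTA values were 20958, 16692 and 15904 normalised reads in Vdr+/+ mice. They were 9298, 15075 and 2397 in Vdr-/- mice, all lower. Its accumbens values were 15.3, 21.1 and 21.5 in Vdr+/+ and 27.8, 40.9 and 85.8 in Vdr-/- mice, all of the latter higher. The Vdr-/- accumbens values rest on only 27, 36 and 84 reads. The share of all genes whose genotypes separate within a region was not counted, so this separation carries no weight by itself. Ret ran alike in the VTA, at 10382, 9088 and 8470.4 and 5153, 8762 and 3031 (0.93 ± 0.28, unadjusted p = 0.0118), with mouse 8 between the values of Vdr+/+ mice. Chrnb3 had a term of 2.21 ± 0.64 (unadjusted p = 0.00915), and Kcnj6 and Cadps2, which were not called in Vdr-/- mice, had differences of -1.66 and -1.37 in Vdr+/+ mice. None of these passed the adjustment.

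Among accumbens genes Pde1b, a calmodulin-dependent phosphodiesterase, had differences of 2.50, 2.44 and 2.56 in the 3 Vdr-/- mice and 3.10, 3.05 and 2.92 in the 3 Vdr+/+ mice. The genotypes were narrowly spread and did not overlap, with a term of -0.52 ± 0.09 (unadjusted p = 0.000534, adjusted p = 0.834). Such a lack of overlap held for 12.5% of all genes. Pde1b is also among the genes named below for the smallest p of the term. Its narrow and separate values therefore carry no weight by themselves. Meis2 (-0.81, unadjusted p = 0.00352) and Adora2a (-0.59, unadjusted p = 0.0186, and -0.38 without Vdr+/+ mouse 2) had terms in the same direction as Pde1b. All 22 medium spiny neuron genes kept their direction in both genotypes.

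The opioid receptors gave no called genotype term. Oprk1 had a larger difference in Vdr-/- mice, at 1.40, 1.14 and 1.97 against 0.58, 0.65 and 0.94 (term 0.78 ± 0.21, unadjusted p = 0.00696). Its term was 0.54 ± 0.16 without mouse 9 and 0.96 without mouse 8. The mice of the genotypes did not overlap, as held for 12.5% of all genes. Oprm1 differed by 0.40, 0.85 and 0.69 in Vdr-/- mice and by 0.72, -3.38 and 0.52 in Vdr+/+ mice, where the value of mouse 2 comes from the accumbens library that stood apart. Its term was 1.36 ± 0.99 with all mice and 0.03 ± 0.17 without mouse 2.

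The partners of the receptor and genes of vitamin D metabolism were mixed in direction. Of 8 tested genes 2 were called higher in the accumbens and 5 higher in the VTA, against 27.3% and 28.1% of all genes. Without mouse 9 the counts were 1 and 3 of 7 tested. Rxrg, the retinoid X receptor γ gene, held 1054, 852 and 1057 normalised reads in the accumbens and 145, 167 and 147 in the VTA of Vdr-/- mice (2.68 ± 0.12, adjusted p = 8.98e-05), while Rxra (-0.58 ± 0.053, adjusted p = 0.000512) was higher in the VTA and Rxrb (0.17) was not called, except without mouse 8 (0.23) or without the block for mouse (adjusted p = 0.0457). The differences of Rxrg were 2.84, 2.34 and 2.84 in Vdr-/- and 3.55, 3.44 and 3.39 in Vdr+/+ mice, without overlap (term -0.79 ± 0.15, unadjusted p = 0.00114, adjusted p = 0.834). Such a lack of overlap held for 12.5% of all genes. Cyp27b1, which activates vitamin D, was low throughout and higher in the accumbens (16.4, 14.7 and 26.4 against 2.99, 4.36 and 1.18), and Cubn, an uptake receptor, was higher in the VTA (-4.39 ± 0.19, adjusted p = 8.98e-05).

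By the smallest p of the genotype term 10 genes are named, none past the adjusted threshold: Arl4d, Armh4, Kank4, Cdkn1a, Hist1h1c, Vwc2l, Ttll3, Pde1b, Ndnf and Kcna5. Kcna5, a potassium channel gene, kept its direction with differences of 2.47, 2.70 and 2.45 in Vdr-/- and 3.27, 3.58 and 3.22 in Vdr+/+ mice. Ndnf, a secreted factor gene, had differences of -0.85, -1.39 and -1.45 in Vdr-/- and -2.79, -3.43 and -2.32 in Vdr+/+ mice, a smaller VTA excess in each Vdr-/- mouse (term 1.62 ± 0.28). Armh4 (0.75), Kank4 (0.74) and Vwc2l (0.96) also had a smaller VTA excess in Vdr-/- mice. Hist1h1c, a linker histone gene, was higher in the VTA of each Vdr-/- mouse, at -0.78, -0.86 and -0.78, and nearly even in Vdr+/+ mice, at -0.19, -0.03 and 0.00.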

How the data were processed

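RNA was taken from bilateral micropunches of frozen brain, made into strand-specific mRNA libraries and sequenced in pairs on a HiSeq 2500. Per the labels and the study's methods, the authors trimmed reads with Trimmomatic 0.36, aligned them to GRCm38 and counted them per GENCODE gene with STAR 2.4.2a, and deposited a DESeq2-normalised signal per gene for each pair of groups. CASAVA 1.8 is named in the labels. Of 8 deposited tables, 2 were used here, the PBS tables of the accumbens and of the VTA. Each deposited signal value is a whole number of reads divided by a size factor: the step worth 1 read was found per library, and 100% of values were whole multiples of it within 0.01 of a read. The tables were joined on gene identifier (28526 genes, of which 24802 are in both). Genes with under 2 reads are absent from a table and were set to 0 there, and 99.8% of identifiers were found in GENCODE M21.

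The 6 Vdr-/- libraries were scaled together with DESeq2 size factors, genes with a mean of at least 10 were kept, and limma 3.58.1 (with a variance trend, R 4.3.3) was fitted to log2(value + 1) with region and mouse as terms. Differences on this scale understate those of low genes. Adjusted p is Benjamini-Hochberg over all genes tested, at 0.05. The genotype term is the product of region and genotype over the 12 PBS libraries of both genotypes, scaled together, with the mouse as a block. edgeR 4.0.16 and DESeq2 1.42.0 on the recovered reads were alternatives, with 2 other scalings, another pseudocount, other filters on low values, no variance trend, no block, and each mouse left out. The fits were tested on simulated data.

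The libraries of the regions share numbers in the labels (7A and 7V), and the study's methods describe sectioning the brain for punches of both regions, so a shared number was read as 1 animal and the design as paired. The labels do not state this. The deviations of the 2 libraries from their region means did not show the pairing over 13081 genes (r = -0.0389, 0.00669 and 0.101 for mice 7, 8 and 9, against -0.11 to 0.0847 between numbers). An exact sign-flip test over 3 mice cannot give a p below 0.25, so single values carry no permutation test. Replicate libraries of the Vdr-/- mice differed beyond sampling noise (chi-square per degree of freedom 4.80 to 14.2). Total reads set the precision of low genes, and intervals of counting are not given since the spread over mice is larger.

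Genes were named by a rule: key genes of both regions, the 10 largest differences in each direction at a mean of at least 50 (predicted genes and overlapping values left out), up to 4 members of each list by size with those of opposite direction, and the 10 smallest p of the genotype term. Other list members are named to account for a count. The libraries, gene lists and tests were chosen with earlier results of these data known. Promoter windows and motifs come from RefSeq (GRCm38.p6), matched by symbol. A few genes that the rule would name are not reported here.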

Additional observations from a re-analysis of the deposited data

Results flagged for a closer look

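Among the 10 genes with the smallest p of the region by genotype term, 4 are given here because their regional differences pointed in opposite directions in all mice of the genotypes or because DESeq2 called the term. Arl4d, a small GTPase gene, had log2 differences (accumbens minus VTA) of 0.62, 0.38 and 1.06 in Vdr+/+ and -0.52, -0.54 and -0.47 in Vdr-/- mice, a term of -1.20 (limma unadjusted p = 0.000174, adjusted p = 0.834; DESeq2 adjusted p = 0.00255). Its VTA values were 250.5, 268 and 159 normalised reads in Vdr+/+ and 520.0, 473 and 583 in Vdr-/- mice, while the accumbens values of 384, 349 and 332 and 363, 324 and 421 overlapped.

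Cdkn1a, the cell cycle inhibitor p21, had differences of 0.19, 0.52 and 0.99 in Vdr+/+ and -0.83, -0.58 and -0.82 in Vdr-/- mice, a term of -1.31 (limma adjusted p = 0.834, DESeq2 adjusted p = 0.00255). Ttll3 had differences of 0.23, 0.45 and 0.39 and -0.33, -0.29 and -0.66, a term of -0.78 that neither limma nor DESeq2 called, and its regional call in Vdr-/- mice was lost without mouse 9 (-0.30). Ndnf differed in size but not in direction, with a term of 1.62 (limma adjusted p = 0.834, DESeq2 adjusted p = 0.000422). In all, 127 of 16337 genes had opposite signs in all 3 mice of the genotypes. Cdkn1a and Arl4d were highest in the VTA of mouse 9, the library lowest in dopamine genes, and the part of this in their values was not tested.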

How the results depend on the processing

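The count of regional genes in Vdr-/- mice was 9068 and lay between 6904 (DESeq2) and 9626 (no filter on low values) under the other settings, and between 6137 and 9256 with 1 Vdr-/- mouse left out. Without the replicate block it was 9414, and the genotype term stayed at 0 calls without it. The Vdr+/+ count of 7353 lay between 4296 and 8914 with 1 Vdr+/+ mouse left out (4296 without mouse 1 and 4848 without mouse 3), and the count shared by the genotypes, 6536, between 4124 and 7596 with 1 mouse of either genotype left out. The genotype term gave 0 calls under all settings run, with 1 mouse left out as well, except 3 with DESeq2. With edgeR 0 genes were called and 885 had an unadjusted p under 0.05.

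Of 1674 differences recomputed for 130 named genes under other settings, 1614 kept their direction and their side of the threshold. The differences that changed sign were those of genes not called: with total-read scaling Nr4a2 (-0.0056), Sox6 (-0.085) and Nos1 (-0.055), and with 1 mouse left out Nr4a2 (-0.25 to 0.56), Nts (-0.63 to 0.45), Cadps2 (-0.38 to 0.28, the latter without mouse 8 and called), Gfra1 (-0.23 to 0.057), Kcnj6 (-0.45 to 0.13), Nos1 (-0.084 to 0.17), Trh (-0.27 to 1.33), Prkcd (-2.07 to 0.023) and Sox6 (-0.00068 to 0.037). Nr4a2 and Nts were called without mouse 8, at 0.56 and -0.63. Without a variance trend Drd2 (1.57), Slc17a7 (4.60), Cck (1.70), Cux2 (-0.53), Nrn1 (-0.76) and Gabre (-2.33) lost their calls, and so did Drd5 (0.72) with DESeq2. The calls of Cx3cr1 and P2ry12 were lost in 6 settings each. Without the replicate block Chrna2 (2.19), Cx3cr1 and P2ry12 lost their calls and Chrna5, Pthlh, Rxrb and Sfxn1 gained one, and no other named gene changed its call. The cause of these changes was not tested.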

Other observations

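Among 22 listed neuropeptide genes 19 were tested in Vdr-/- mice. Of the 19, 5 were called higher in the accumbens and 5 higher in the VTA, near the shares of all genes (27.3% and 28.1%). Of 18 tested the counts were 6 and 5 without mouse 7, 5 and 7 without mouse 8, and 4 and 4 without mouse 9. Adcyap1, the PACAP precursor, was even among the mice, at 1022, 1060.3 and 1156 normalised reads in the VTA and 108, 98.1 and 108 in the accumbens (-3.36 ± 0.076, adjusted p = 3.11e-05), and Grp differed by -3.36 and Gal by -2.90, the latter not called without mouse 9. In the accumbens Cck held 1165, 674 and 888 against 147, 459 and 296 (1.70 ± 0.43, adjusted p = 0.0188, not called without mouse 9) and Vip differed by 2.43 ± 0.31 (adjusted p = 0.00171). Nts (-0.05) and Cartpt (0.84), both known in VTA and accumbens neurons, were not called, though without mouse 8 Nts was higher in the VTA (-0.63). In the VTA of mouse 8 Cartpt (205, 45.0 and 313 in mice 7, 8 and 9) and Trh (64.7, 8.71 and 74.8) were low, as Hcrt and Pmch were.

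The defining serotonin neuron genes Tph2, Slc6a4 and Fev were too low to test, with means under 10 normalised reads over the 6 libraries. The choroid plexus genes Ttr, Folr1 and Kcnj13 were too low to test as well, and of the 4 list members tested 2, Clic6 (2.04) and Kl (1.39), were higher in the accumbens, 1, Otx2 (-2.26), was higher in the VTA and 1 was not called. Of 8 septal genes 1, Matn2 (2.67 ± 0.18, adjusted p = 0.000238), was called higher in the accumbens (3 without mouse 8 and 2 without mouse 9), and of 5 tested hippocampal genes 3 were higher in the accumbens, among them Zbtb20 (0.99), and 2 in the VTA, Prox1 (-1.60) and Dsp (-1.68).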
